A study of Mus musculus with 20 samples.

Results

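Genes of the peroxisome were compared between colonic intestinal epithelial cells (IECs) of unstressed mice (Con) and of mice exposed to a social disruption stressor (Str). The set was composed by name, with earlier results of these data known. It holds 32 genes, namely 12 peroxins, which build the organelle, and 20 genes listed as peroxisomal enzymes, transporters or membrane proteins. Of these, 31 had a row among the 15876 genes of the count table, all 12 peroxins and 19 of the others, and all 31 passed the minimum mean count of 4. *Abcd2*, a transporter of very long chain fatty acids, had no row and was not analysed here.

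RNA sequencing was done on IECs from 10 Con and 10 Str mice. All were adult male C57BL/6NCrl mice, 6 to 8 weeks of age, and no altered gene or drug is given for either group. For Str, an aggressive retired breeder male was put into the home cage of 3 resident mice for 2 h/d over 6 d, and Con mice stayed in their home cages without handling. Cells were sorted from the colon as positive for EpCAM, an adhesion protein of epithelium, and negative for CD45, a surface protein of leukocytes. The cage of each library is not given, so the test treats mice as independent. The social aggressor and all residents were male, so the data describe male mice only.

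Peroxisomes are small organelles with a single membrane that take in folded enzymes from the cytosol. They shorten very long chain, branched and dicarboxylic fatty acids by β-oxidation, hand the shortened products on to mitochondria as carnitine esters, and both make and remove hydrogen peroxide. Several of these enzymes are known as targets of PPARα, a nuclear receptor that senses fatty acids.

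Most matrix enzymes reach the organelle through a short signal at the very end of the protein (PTS1), which the receptor *Pex5* binds, and a few through a signal near the start (PTS2), which *Pex7* binds. The coding ends are shown as a description, since a signal that brings enzymes to the peroxisome is tied to a choice of peroxisomal genes. The ends were read from GENCODE M21 transcripts (GRCm38), 5′ to 3′. Each line holds the last 30 bases of the coding sequence with its stop codon, with the last 3 codons before the stop in capitals.
Ehhadh: ttggcaggaccccatagcAGCAAACTGtga
Hao2: ccagacctgattcagttcTCCAGATTAtaa
Ech1: acaaaaagcatcaccttcTCCAAGCTCtga
Crat: ctccagaaccaccccaggGCCAAGCTCtga
Decr2: gagtttgaatccttctctGCTAAGCTGtag
Scp2: cagcttcagccgggcaaaGCTAAGCTGtga
Ephx2: cagaacccatcagtgaccTCCAAGATTtag
Acox3: gtagccgacaggctaaagTCCCAGCTGtag
The codons of the first 6 lines encode a small residue (serine, alanine or cysteine), then a basic residue, then leucine or methionine, which is the classical form of PTS1. Those of *Ephx2* end in isoleucine and those of *Acox3* hold glutamine in the middle, so neither matched the classical form.

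The start signal is shown for *Acaa1a* and *Phyh*, the enzymes of the set that held it, with its 9 codons in capitals.
Acaa1a: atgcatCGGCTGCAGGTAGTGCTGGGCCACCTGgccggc
Phyh: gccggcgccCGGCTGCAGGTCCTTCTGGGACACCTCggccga
The pattern searched within the first 40 codons was arginine or lysine, then leucine, valine or isoleucine, 5 residues of any kind, histidine or glutamine, then leucine or alanine. *Pex11a*, a membrane protein that is not imported by this route, also matched the letters, so a match is a description and not a working signal. PTS1-type ends were found in 7 of 31 members and in 68 of 12612 genes of the table with a complete coding sequence (0.539%). PTS2-type starts were found in 3 members and 97 genes (0.769%). A higher share among members follows from how they were chosen.

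Library totals ranged from 20034127 to 26141352 counts, and levels are given as CPM, the share of a library total scaled by TMM factors. After the first letter of a library name, C for Con or S for Str, stands a V or an L that the sources do not explain (5 of each in Con and in Str). A group of 4 Con libraries stood apart by liver transcripts (CV3, CV4, CV6 and CL1). *Alb*, the gene of serum albumin, was at 69.3 to 79.9 CPM in those 4 and at 1.64 to 3.19 CPM in the other 16 libraries. Of 19 hepatocyte markers 5 had a row, and their summed level, which includes *Alb*, was 147 to 174 CPM in those 4 against 43.5 to 71.8 CPM in the others. Besides *Alb*, only *Ambp* set the 4 apart, at 5.18 to 6.55 CPM against at most 2.63 CPM in other Con and 1.90 CPM in Str libraries. Levels of *Ttr*, *Trf* and *Apoa2* in the 4 overlapped those of the others. Liver is rich in peroxisomes, so each result is also given without those 4 libraries where that changed a call. Leaving them out also makes Con smaller and shifts its balance of V and L libraries. Markers of epithelium (6 of 7 with a row) summed to 12569 to 14887 CPM in Con and 11543 to 15429 CPM in Str, and none was called. Leukocyte markers had a row for 3 of 10 and summed to 4.66 to 8.92 CPM in Con and 5.41 to 8.19 CPM in Str, with *Cd68* of macrophages higher in Str (not called without the 4 libraries).

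Enzymes and membrane proteins of the organelle were lower in Str in most cases, while most peroxins did not pass the test. In edgeR's quasi-likelihood test on all genes with Benjamini-Hochberg adjustment, a call was made at an adjusted p under 0.05. It gave 13 of the 31 members lower in Str, 1 higher and 17 not called. Over all genes 7.72% were lower and 8.94% were higher. Among protein coding genes with a mean level at least that of the lowest member, 9.46% were lower and 10.8% were higher. These shares are given for scale only, since the members were chosen with earlier results of these data known. The median log2 fold change was -0.12 over the members and 0.00 over all genes. All 13 calls lay between -0.46 and -0.14 on the log2 scale, so no member reached a log2 fold change of 0.5, the limit that the study set for its own calls.

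**Figure D1:**
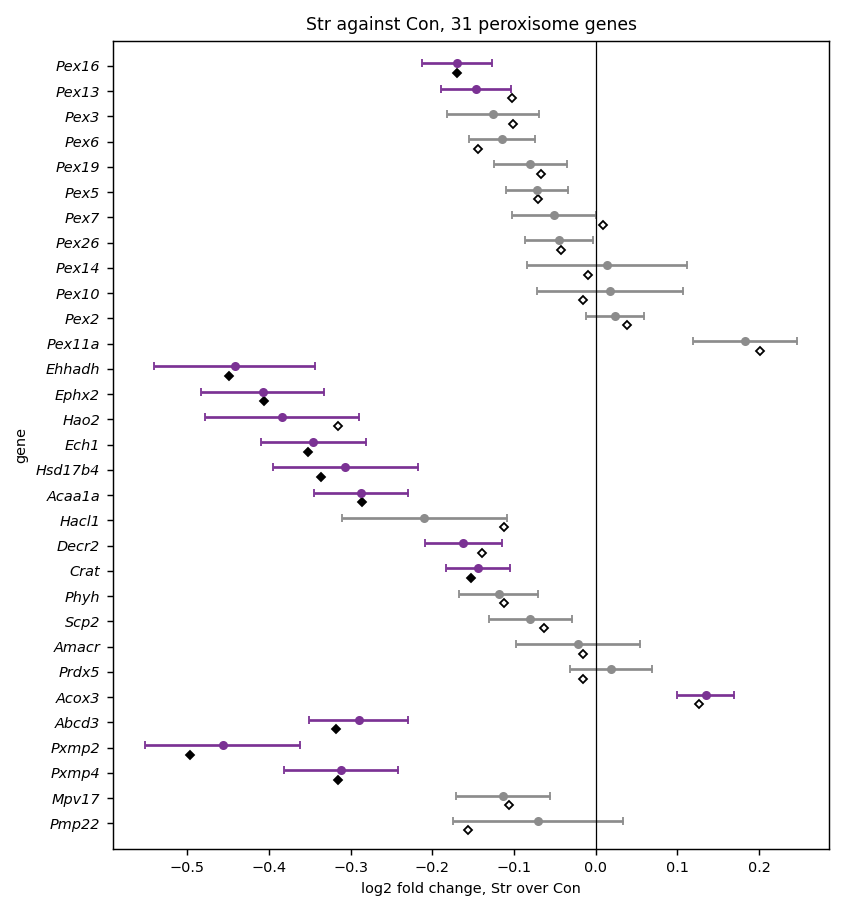
The plot of fold changes gives the log2 fold change (Str over Con, x axis) of the 31 members with a row, peroxins at the top, then enzymes, the transporter *Abcd3* and 4 membrane proteins. Circles with bars are the value and its SE over all 20 libraries, purple where the adjusted p was under 0.05, and diamonds are the values without the 4 Con libraries with liver transcripts, filled where called. The circles of the peroxins lie between -0.17 and 0.18, and those of *Pxmp2*, *Ehhadh* and *Ephx2* lie farthest to the left.

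Peroxins as a group showed small differences. Of 12, 2 were lower in Str (*Pex16* and *Pex13*), 0 were higher by edgeR and 10 were not called. The shares of all genes were 7.72% lower and 8.94% higher. The median log2 fold change of the peroxins was -0.06. At an unadjusted p under 0.05, 4 were lower and 1 was higher, where 15.5% of all genes were lower and 14.8% were higher. DESeq2 and limma-voom each called 1 peroxin higher (*Pex11a*). Without the 4 libraries 1 peroxin was lower, where 3.83% of all genes were lower and 5.38% were higher.

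*Pex16* and *Pex3* act at the first step, in which membrane proteins are placed into the new organelle, and *Pex19* is the carrier that brings those proteins. *Pex16* (chr2:92374676-92381220) was at 24.8 to 28.8 CPM in Con (median 26) and at 20.7 to 25.7 CPM in Str (median 23.6). 7 of 10 Str libraries were under every Con library, and the gene fell by 11.1% (log2 fold change -0.17 ± 0.04, SE, adjusted p = 0.00917). The call remained without the 4 libraries (adjusted p = 0.0426). *Pex3* was at 15.5 to 18.8 CPM in Con and 13.1 to 18.8 CPM in Str (adjusted p = 0.130), and *Pex19* at 45.7 to 56.4 and 42.7 to 52.3 CPM (adjusted p = 0.234). Both ranges overlapped for most libraries.

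*Pex13* and *Pex14* are the docking proteins at the membrane where loaded receptors arrive. *Pex13* (chr11:23646843-23665883) was at 36.2 to 43.6 CPM in Con (median 39.4) and at 32.8 to 38.3 CPM in Str (median 34.8), with 6 Str libraries below the lowest Con library. It fell by 9.66% (log2 fold change -0.15 ± 0.04, SE, adjusted p = 0.0202), and the difference was -0.10 without the 4 libraries, where the adjusted p was 0.150. *Pex14* had the lowest level of the set, 2.45 to 3.53 CPM in Con and 2.14 to 3.53 CPM in Str, and its interval of the log2 difference ran from -0.18 to 0.21.

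The import receptors *Pex5* and *Pex7* were not called. *Pex5* was at 37.7 to 44.7 CPM in Con (median 41.5) and 35.4 to 41.9 CPM in Str (median 38.8), with a log2 fold change of -0.07 (95% interval -0.15 to 0.00, adjusted p = 0.204). *Pex7* was at 25.2 to 32.9 and 23.9 to 28.7 CPM (log2 fold change -0.05, adjusted p = 0.540). For both genes the interval leaves room for a small decrease and for none.

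*Pex2* and *Pex10* are ring finger proteins that tag the receptor with ubiquitin so that it can leave the membrane, and *Pex6*, held there by *Pex26*, is an ATPase that pulls it out. *Pex2* was at 36.7 to 41.4 CPM in Con and 37.3 to 43.0 CPM in Str (log2 fold change 0.02 ± 0.04, SE), and *Pex10* had a log2 fold change of 0.02 ± 0.09 (SE). *Pex6* was at 42.8 to 48.8 CPM in Con (median 43.8) and 38.3 to 45.5 CPM in Str (median 40.8), and 6 Str libraries were under every Con library. Its log2 fold change of -0.12 did not pass (adjusted p = 0.0538). DESeq2 (adjusted p = 0.0460) and limma-voom (0.0143) called it, and so did edgeR without CL4 (0.0494), SV4 (0.0481), SV5 (0.0358) or SL5 (0.0254). *Pex26* had a log2 fold change of -0.04 (adjusted p = 0.501).

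*Pex11a* takes part in the lengthening and division of peroxisomes and is known to respond to PPARα ligands. It was the peroxin with the highest fold change, at 11.1 to 15 CPM in Con (median 12.4) and 12.4 to 16.7 CPM in Str (median 14.0), and 3 Str libraries lay above the highest Con library. The log2 fold change of 0.18 ± 0.06 (SE) had an adjusted p of 0.0524. It was called by DESeq2 (adjusted p = 0.0341) and limma-voom (0.0159), and by edgeR without CV2 (0.0245), CV4 (0.0464), SV5 (0.0314) or SL4 (0.0444). With library sizes as the only scaling the adjusted p was 0.110. Of the genes that peroxisomes share with mitochondria for division, *Mff*, the anchor of the fission machine, was lower in Str (log2 fold change -0.15, adjusted p = 0.00535), and *Dnm1l* (0.02) and *Fis1* (-0.04) were not called.

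Among the 19 enzymes, transporters and membrane proteins, 11 were lower, 1 was higher and 7 were not called, and 17 had a negative log2 fold change (median -0.21). Over all genes 7.72% were lower, 8.94% were higher and 51% had a negative log2 fold change. The difference between the 19 genes and the peroxins was not tested. Without the 4 Con libraries 9 of the 19 were lower and 0 higher by edgeR, with *Acox3* at an adjusted p of 0.0609. The shares of all genes there were 3.83% and 5.38%. In bulk RNA, fewer cells of a type and less RNA per cell cannot be told apart. Markers of differentiated colonocytes, the absorptive cells of the surface, had 1 of 8 lower (*Car1*) and 3 higher in Str (*Krt20*, *Slc26a3* and *Ceacam1*; 1 lower and 1 higher without the 4 libraries), and summed to 9770 to 14522 CPM in Con and 11162 to 14323 CPM in Str. Of 6 goblet cell markers with a row, 1 was lower (*Agr2*, log2 fold change -0.28, adjusted p = 0.00535, and 0.0209 without the 4 libraries). Of the 5 hepatocyte markers, *Alb*, *Ambp* and *Ttr* were lower in Str, and of these *Ttr* was also called without the 4 libraries (-0.35, adjusted p = 0.0314). The part of these markers in the result was not tested.

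**Figure D2:**
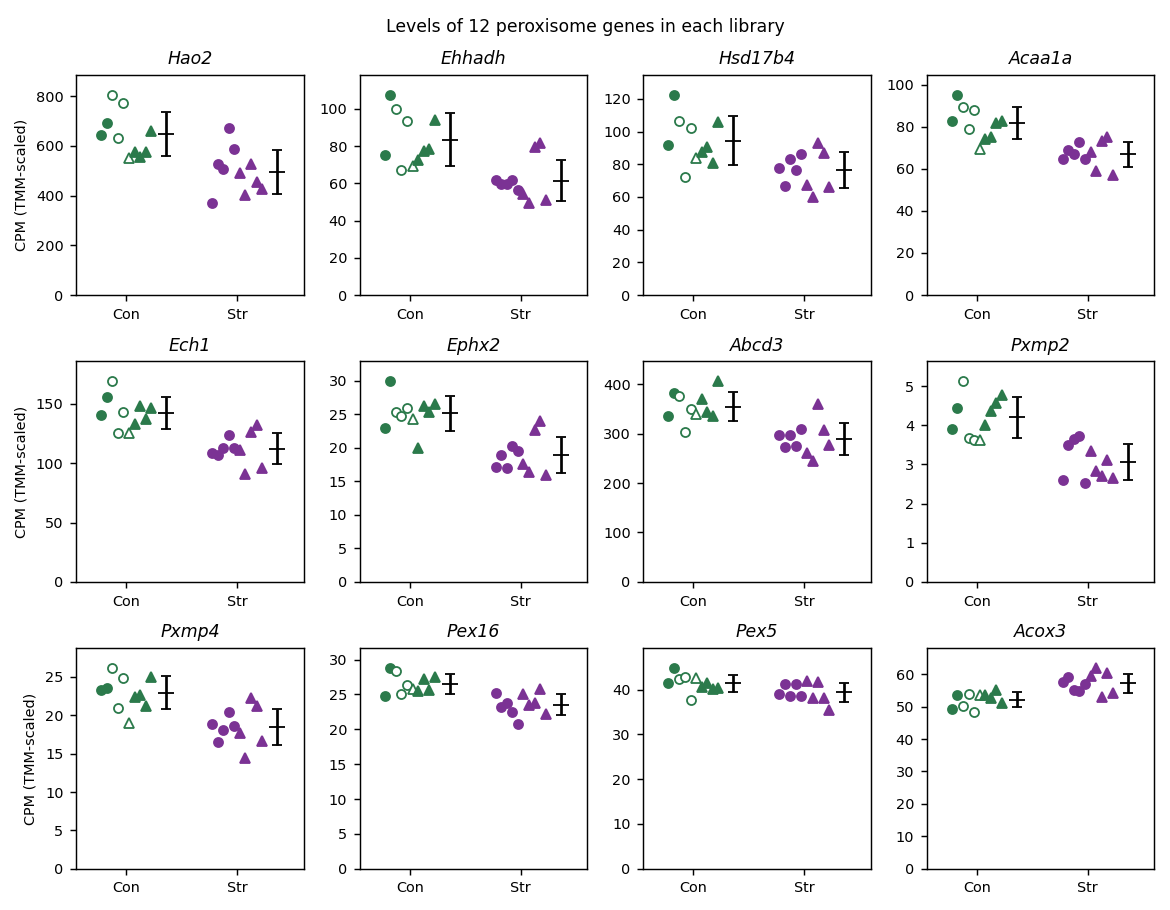
The plot of levels gives the TMM-scaled CPM (y axis, from 0) of 12 genes in each of the 10 Con (green) and 10 Str (purple) libraries. Circles are V and triangles are L libraries, open symbols are the 4 Con libraries with liver transcripts, and the bar at the right of each group is its mean and SD. Str libraries sit below most Con libraries for *Ech1*, *Ephx2* and *Acaa1a*, the groups overlap widely for *Pex5*, and *Acox3* sits higher in Str.

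Peroxisomal β-oxidation starts with an acyl-CoA oxidase, goes on with a bifunctional enzyme and ends with a thiolase. At the middle reactions, *Ehhadh* (chr16:21761285-21787834), the bifunctional enzyme for straight chains, was at 66.9 to 108 CPM in Con (median 78.0) and 49.7 to 81.8 CPM in Str (median 59.6). 8 Str libraries were under every Con library, and the other 2, SL4 (79.2 CPM) and SL5 (81.8 CPM), lay within the Con range. *Ehhadh* fell by 26.4% (log2 fold change -0.44 ± 0.10, SE, adjusted p = 0.00372). *Hsd17b4*, the bifunctional enzyme that also takes branched chains and bile acid precursors, was at 71.9 to 123 CPM in Con (median 91.4) and 59.7 to 93.0 CPM in Str (median 76.9). Its groups overlapped more, with 4 Str libraries below the lowest Con library, and it fell by 19.1% (adjusted p = 0.0205).

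At the last reaction, the thiolase *Acaa1a* (chr9:119341028-119350296) was at 69.5 to 95.3 CPM in Con (median 82.1) and 56.9 to 74.9 CPM in Str (median 67.4). 7 Str libraries were under every Con library, and it fell by 18% (log2 fold change -0.29 ± 0.06, SE, adjusted p = 0.00157). Its exons overlap those of *Myd88* on the other strand over 6.57% of their length, and it has a close copy, *Acaa1b*, so the split of reads between the copies is uncertain. *Acaa1b* itself was at 1.52 to 24.9 CPM in Con and 1.24 to 13.8 CPM in Str (adjusted p = 0.0888).

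At the first reaction, *Acox3*, the oxidase for branched chains, was the 1 member that was higher in Str. It was at 48.4 to 55.0 CPM in Con (median 53.1) and 53.1 to 61.8 CPM in Str (median 57.2), and 6 Str libraries lay above the highest Con library. The log2 fold change was 0.13 ± 0.04 (SE, adjusted p = 0.0115). The call was lost without the 4 Con libraries (0.13, adjusted p = 0.0609) and with library sizes alone (0.09, 0.0757). An antisense gene, *4931431C16Rik*, overlaps 6.08% of its exon length.

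Auxiliary enzymes prepare unsaturated chains for the cycle. *Ech1* (chr7:28825338-28832239), which moves double bonds, was at 125 to 169 CPM in Con (median 142) and 90.8 to 133 CPM in Str (median 112), with 8 Str libraries below the lowest Con library. It fell by 21.3% (log2 fold change -0.35 ± 0.06, SE, adjusted p = 0.000908). *Decr2*, a dienoyl-CoA reductase, was at 56.4 to 65.8 CPM in Con and 46.5 to 60.1 CPM in Str. It fell by 10.6% (adjusted p = 0.0203) and was not called without the 4 libraries (log2 fold change -0.14, adjusted p = 0.114). *Crat*, which turns shortened acyl-CoA into carnitine esters for export, was at 47.9 to 54.2 CPM in Con and 39.5 to 50.1 CPM in Str, with 8 Str libraries below the lowest Con library. It fell by 9.53% (adjusted p = 0.0136).

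*Hao2*, a 2-hydroxy acid oxidase that gives off hydrogen peroxide, had the highest level of the set per length of exon, 316 CPM per kb in the Con mean. In CPM it was at 550 to 807 in Con (median 638) and 370 to 672 in Str (median 498), and 8 Str libraries were under every Con library. *Hao2* (chr3:98874519-98895376) fell by 23.4% (log2 fold change -0.38 ± 0.09, SE, adjusted p = 0.00757). The 4 Con libraries with liver transcripts had a mean of 690 CPM and the other 6 a mean of 618 CPM. Those 4 held both the highest Con library (CV3, 807 CPM) and the lowest (CL1, 550 CPM). Without those 4 the log2 fold change was -0.31 (adjusted p = 0.0607). Liver transcripts and the letter overlap in part, since CV3, CV4 and CV6 are V libraries and CL1 is an L library. The V libraries CV1 and CV2, without liver transcripts, were at 646 and 693 CPM, and the other L libraries of Con at 556 to 661 CPM. The part of liver transcripts or of the letter in the level of *Hao2* was not tested.

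*Ephx2*, the soluble epoxide hydrolase that opens fatty acid epoxides in cytosol and peroxisome, was at 19.9 to 29.9 CPM in Con (median 25.3) and 15.9 to 24.0 CPM in Str (median 18.2). 7 Str libraries were under every Con library, and the gene (chr14:66084372-66124522) fell by 24.6%, with the smallest adjusted p of the set (log2 fold change -0.41 ± 0.08, SE, adjusted p = 0.000902). The 4 Con libraries were close to the rest here, with means of 25.1 and 25.2 CPM, and the log2 fold change without them was -0.41 as well (adjusted p = 0.0125).

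Enzymes for branched chains were not called apart from *Hsd17b4* and *Acox3*. *Phyh* and *Hacl1* carry out the first steps of α-oxidation of phytanic acid. *Phyh* was at 134 to 162 CPM in Con and 115 to 153 CPM in Str (log2 fold change -0.12, adjusted p = 0.0974), and without SL4 it was called (-0.14, adjusted p = 0.0383). *Hacl1* was at 6.67 to 10.4 and 5.02 to 8.47 CPM, and its log2 fold change of -0.21 had a 95% interval of -0.41 to -0.01 and an adjusted p of 0.163. *Amacr*, a racemase that turns branched acyl-CoA into the form the oxidases take, had a log2 fold change of -0.02 (adjusted p = 0.880), with more spread in Str (7.48 to 11.5 CPM) than in Con (8.15 to 10.2 CPM). *Scp2*, which encodes both a thiolase for branched chains and a lipid carrier, was at 153 to 198 and 148 to 191 CPM (log2 fold change -0.08, adjusted p = 0.303). Of these 4 genes, the SE was smallest for *Phyh* and *Scp2*.

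*Prdx5*, a peroxiredoxin that removes peroxides in peroxisomes, mitochondria and cytosol, was at 145 to 192 CPM in Con (median 165) and 153 to 189 CPM in Str (median 166). Its log2 fold change was 0.02 with a 95% interval of -0.08 to 0.12, so a decrease of the size seen for *Ephx2* or *Hao2* lies outside the interval. Reads of *Trmt112* on the other strand could enter over 19.1% of its exon length, since the strand setting of the counting is not given.

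Of the membrane proteins, *Abcd3* (chr3:121758904-121815302), the transporter that carries branched and dicarboxylic acyl-CoA into the organelle, was at 304 to 406 CPM in Con (median 347) and 244 to 361 CPM in Str (median 287). It fell by 18.2% (log2 fold change -0.29 ± 0.06, SE, adjusted p = 0.00214), with 7 Str libraries below the lowest Con library. *Pxmp2* (chr5:110274286-110286222), a pore protein of the peroxisomal membrane, had the largest decrease of the set, by 27.1% (log2 fold change -0.46 ± 0.09, SE, adjusted p = 0.00204). Its level was low, 3.62 to 5.12 CPM in Con (median 4.18) and 2.53 to 3.71 CPM in Str (median 2.97), and 8 Str libraries were under every Con library. *Pxmp4*, another integral membrane protein, was at 19.0 to 26.1 CPM in Con and 14.5 to 22.2 CPM in Str and fell by 19.4% (adjusted p = 0.00395). All 3 calls held without the 4 libraries, at adjusted p of 0.00928, 0.00747 and 0.0151.

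*Mpv17* and *Pmp22* were listed with the membrane proteins and were not called. *Mpv17* belongs to the family of *Pxmp2* but sits in the inner mitochondrial membrane, and it was at 12 to 16.3 CPM in Con and 11.9 to 14.0 CPM in Str (log2 fold change -0.11, adjusted p = 0.187). *Pmp22* encodes peripheral myelin protein, which is not a protein of the peroxisome, and it was at 351 to 583 CPM in Con and 359 to 587 CPM in Str (log2 fold change -0.07, adjusted p = 0.695).

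By level per length, the set spanned a wide range, and calls were found throughout it. In the Con mean, *Hao2* (316 CPM per kb of exon) and *Pmp22* (197) were followed by *Prdx5* (77.8), *Phyh* (77.4), *Ech1* (62.4), *Abcd3* (53.8), *Scp2* (50.6) and *Ehhadh* (28.0). *Prdx5* and *Phyh* do not differ beyond their spread, nor do *Abcd3* and *Scp2*. The highest peroxin was *Pex2* at 17.1 CPM per kb, and *Pex10* (1.21) and *Pex14* (0.468) were lowest.

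Str libraries differed among themselves. Over the 13 members called lower, libraries SV2, SL2 and SL6 were below the lowest Con library for all 13, SL1 for 11, SV1 for 10, SV4 and SV6 for 9 each, SV5 for 6, SL4 for 4 and SL5 for 2. These counts use the values that gave the calls and are a description. SL2 was the lowest Str library for 8 of the 13 and SL5 the highest for 6. SL5 and SL4 did not stay high for every gene, since *Pxmp2* was at 2.70 CPM in SL4 and 3.10 CPM in SL5, below the lowest Con value of 3.62 CPM. Among Con libraries, CV2 and CV3 were the highest for 5 genes each and CL1 the lowest for 4.

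**Figure D3:**
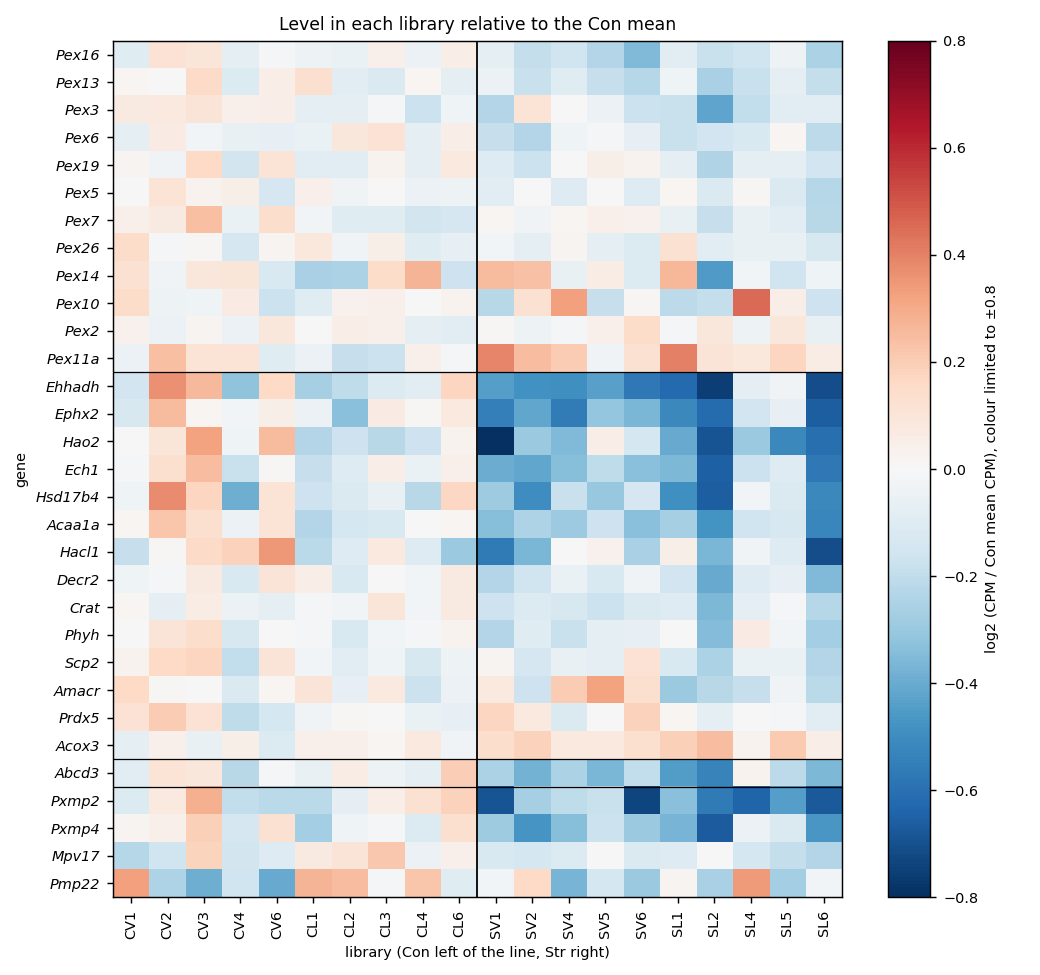
The map of levels by library shows log2 of each library's CPM over the Con mean CPM of the same gene, for 31 genes (rows) and 20 libraries (columns, Con at the left), with the colour limited to ±0.8. Enzymes from *Ehhadh* to *Acaa1a*, *Abcd3*, *Pxmp2* and *Pxmp4* are blue in most Str columns. For *Ehhadh*, *Ephx2*, *Ech1*, *Hsd17b4* and *Acaa1a* the blue is deepest in SL2 and SL6 and palest in SL4 and SL5. Among Str columns *Pxmp2* is palest in SV5 and SV4, and *Hao2* is deepest in SV1 and highest in SV5.

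Within V libraries alone 6 of the 19 enzymes, transporters and membrane proteins were lower and 0 of 12 peroxins, where 5.15% of all genes were lower. Within L libraries alone 0 members were called, where 0.0126% of all genes (2 genes) were lower, so that comparison made almost no calls at all. The log2 fold changes in L libraries were still negative for 18 of the 19, with a median of -0.21, against 15 of 19 and a median of -0.27 in V libraries. Over all genes 8271 of 15876 were negative in L libraries and 7995 of 15875 in V libraries. The difference of the Str effect between letters was tested by an interaction term. It passed for 0 genes of the table after adjustment, and the smallest adjusted p of a member was 0.860. At an unadjusted p under 0.05 (5.78% of all genes) there was 1 member, *Amacr* (L minus V difference of -0.27, p = 0.0414, edgeR).

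By targeting signal, 6 of the 7 members with a PTS1-type end were lower (*Ehhadh*, *Hao2*, *Ech1*, *Crat*, *Decr2* and *Hsd17b4*), and *Scp2* was not called. Of all 68 genes with such an end 16 were lower and 3 higher, against 7.72% lower and 8.94% higher over all genes. This count leans on genes already described, since the 22 on the list of other peroxisomal genes included 9 lower and the 39 on neither list 1 lower (2.56%) and 3 higher, with a median log2 fold change of 0.00. Of the PTS2-type enzymes *Acaa1a* was lower and *Phyh* was not called. Promoter windows of 300 bases were matched for 24 members, 9 of them called lower. None held the letters of the PPAR element DR1 on either strand. These were taken as AGGNCA, 1 base of any kind and AGGNCA again, and stood in 0.451% of 27025 genes with a window. At so low a share most sets of 24 genes would hold none, so a part of PPAR was not tested.

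The rest of the organelle was read from a list of 57 other peroxisomal genes, also chosen with earlier results known, of which 50 had a row. Of these, 18 were lower, 2 higher and 30 not called, with a median log2 fold change of -0.13, against 7.72% of all genes lower and 8.94% higher. Without the 4 Con libraries 7 were lower and 2 higher, against 3.83% and 5.38% of all genes. The 5 other peroxins had 0 calls by edgeR, with 2 lower at an unadjusted p under 0.05 (15.5% of all genes).

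*Xdh*, xanthine dehydrogenase, a cytosolic purine enzyme also reported in peroxisomes, had the smallest adjusted p of this list and was higher in Str. It was at 60.3 to 94.8 CPM in Con (median 79.6) and 90.7 to 239 CPM in Str (median 133), with 9 Str libraries above the highest Con library (log2 fold change 0.84 ± 0.13, SE, adjusted p = 0.000160). The call held without the 4 libraries (adjusted p = 0.00749).

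Lower genes of the list covered several steps. *Mlycd*, malonyl-CoA decarboxylase, was at 23.3 to 32.8 CPM in Con (median 27.3) and 21.2 to 24.0 CPM in Str (median 22.4) and fell by 17.5% (adjusted p = 0.000651). *Hsdl2*, a dehydrogenase of lipid metabolism, was at 34.5 to 48.8 and 27.2 to 40.3 CPM and fell by 22.4% (adjusted p = 0.00146). *Acot4*, an acyl-CoA thioesterase, fell by 24.8% (adjusted p = 0.00470) and *Slc27a2*, a very long chain acyl-CoA synthetase, by 34.3% (adjusted p = 0.00770). *Cat*, catalase, which breaks down hydrogen peroxide, was at 64.5 to 89.7 CPM in Con (median 76.9) and 46.9 to 73.1 CPM in Str (median 63.9) and fell by 18.9% (adjusted p = 0.00859). Also lower were *Pnpla8*, a phospholipase (log2 fold change -0.18, adjusted p = 0.00553), and *Gstk1*, a glutathione transferase (-0.37, adjusted p = 0.0109). Without the 4 libraries *Pnpla8* (adjusted p = 0.0705), *Slc27a2* (0.0510) and *Cat* (0.0703) were not called, while the log2 fold changes stayed at -0.15, -0.60 and -0.26.

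For *Baat* and *Uox*, the values with and without the 4 libraries differed most, and both were picked after their values were seen. *Baat*, a bile acid conjugating enzyme typical of liver, was at 1.91 to 2.54 CPM in the 4 Con libraries and 0.540 to 1.07 CPM in the other 6, and its log2 fold change of -0.85 (adjusted p = 0.0353) became -0.15 without the 4 (adjusted p = 0.737). *Uox*, urate oxidase of liver, was at 2.11 to 2.69 and 0.411 to 1.04 CPM, and its log2 fold change went from -0.65 to 0.28, neither called. Among members, *Hacl1* went from -0.21 to -0.11 and *Pex7* from -0.05 to 0.01, neither called. The log2 fold changes of the 13 members called lower were -0.50 to -0.10 without the 4 libraries.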

How the data were processed

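Total RNA of IECs was depleted of ribosomal RNA and made into directional libraries. The authors aligned reads with STAR 2.5.1b to GRCm38.p4, per the submitters' processing notes, and counted them per gene with HTSeq, whose strand setting is not given in the sources used here. The values used are the raw counts per gene that the authors deposited. Another 20 columns of per-sample values were not used. Columns were assigned to Con or Str by their first letter. Nothing ties a column to a cage, so p-values measure the spread between these libraries.

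R 4.3.3 and edgeR 4.0.16 were used for the test of Str against Con. Counts were scaled by TMM, genes needed an average of at least 4 counts (every gene passed, the lowest having 6), and quasi-likelihood p-values were adjusted over 15876 genes by Benjamini-Hochberg. A gene was called at an adjusted p under 0.05. The steps were tested on simulated data with 200 changed genes. The SE is the absolute log2 fold change over the square root of F, and a 95% interval is 1.96 SE to each side. Gene positions and sequences are those of RefSeq and GENCODE M21 on GRCm38. Coding ends come from a single transcript per gene, with APPRIS principal ones preferred and then the longest complete coding sequence. Promoter windows are those of the RefSeq table.

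Alternatives were DESeq2 1.42.0, limma-voom (limma 3.58.1) with quality weights, other scalings and filters, each library left out, the letter of the library name as a covariate, V or L libraries alone, a replicate block and the thresholds of the study. The comparison without 4 Con libraries and the interaction term were added after the data were seen. The members and lists were chosen with earlier results of these data known. All members are named, and of the other peroxisomal genes the 10 with the smallest adjusted p, except that some are not reported here. Genes named beside them (*Acaa1b*, *Baat*, *Uox*) were chosen after their values were seen. At this depth *Pxmp2*, *Pex10* and *Pex14* rest on the fewest counts.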

Additional observations from a re-analysis of the deposited data

How the results depend on the processing

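Of 13 members called lower, all kept direction and call under DESeq2, limma-voom, RLE factors, no low count filter, filterByExpr, library sizes alone, the letter as a covariate and each library left out. The 15% of genes that vary least include 6 members, among them *Acox3*, so that filter left 0 enzymes or membrane proteins higher. Peroxins called higher numbered 1 in place of 0 (*Pex11a*) with DESeq2, limma-voom, RLE factors, filterByExpr and the letter as a covariate. With library sizes alone 4 peroxins were lower and 0 enzymes higher, and over all genes 1949 were lower and 1031 higher, against 1226 and 1420 with TMM factors.

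Without the 4 Con libraries 1 peroxin, 9 enzymes, transporters and membrane proteins and 7 other peroxisomal genes were lower, 0 enzymes higher, and 608 of all genes lower and 854 higher. V libraries alone gave 0 peroxins, 6 enzymes, transporters and membrane proteins and 10 other peroxisomal genes lower, 0 enzymes higher, and 817 of all genes lower and 807 higher. L libraries alone gave 0 calls on all 3 lists, and 2 genes lower and 9 higher in all. At the thresholds of the study (adjusted p under 1e-05, log2 fold change over 0.5) edgeR called 0 genes of the 3 lists, 0 of all genes lower and 5 higher. The study set those limits for DESeq2, and calls of DESeq2 at them were not counted here. By DESeq2 the adjusted p was 1.79e-08 for *Xdh* and 2.67e-06 for *Alb*, both under the limit. The smallest DESeq2 adjusted p of a member was 1.90e-05 (*Ephx2*).

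Left out in turn, single libraries gave 2 to 3 peroxins lower and 0 to 1 higher, 11 to 12 enzymes, transporters and membrane proteins lower, 12 to 23 other peroxisomal genes lower, and 902 to 1605 of all genes lower and 1151 to 1567 higher. Signs changed only among members that were not called. Leaving out 1 library gave log2 fold changes of -0.0188 to 0.0547 for *Pex14*, -0.0383 to 0.0418 for *Pex10*, -0.00146 to 0.0438 for *Prdx5* and -0.0672 to 0.00480 for *Amacr*. Library sizes alone gave *Pex2* -0.0192, *Pex10* -0.0223, *Pex14* -0.0293 and *Prdx5* -0.0235, and limma-voom gave *Pex10* -0.0139. Without the 4 Con libraries the values were 0.00893 for *Pex7*, -0.0153 for *Pex10*, -0.00973 for *Pex14* and -0.0150 for *Prdx5*. L libraries alone gave *Pex14* -0.0268 and *Prdx5* -0.00257, and V libraries alone *Amacr* 0.103 and *Pmp22* 0.0224. The cause was not tested.

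With a replicate block by the library names that both groups hold, 1 peroxin was lower and 0 enzymes higher, and *Pex16* (adjusted p = 0.0564), *Acox3* (0.0530), *Hsd17b4* (0.0639), *Crat* (0.0603) and *Gstk1* (0.0583) were not called. Same-named libraries of Con and Str correlated at 0.00366 to 0.342 over 8 names, and 2 of 8 matched their own name best, so the names were not taken as pairs. Genes of a few CPM, such as *Pxmp2* and *Pex14*, rest on the fewest counts.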
